A study of Macaca mulatta with 24 samples.

Results

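The T and NK lymphocyte genes described here are 51 genes that encode the receptor chains, coreceptors, signalling proteins, cytokine and chemokine receptors and transcription factors of T cells and natural killer (NK) cells, followed in the colon of rhesus macaques after total-body irradiation (TBI). They were matched by gene symbol to the probes of an Agilent rhesus array, and the probe with the highest mean over the 24 arrays stood for each gene. A probe was found for 42 of the 51 genes, out of 14556 named genes with a probe. CD6, CD7, CD8B, TIGIT, LAT, UBASH3A, TRAT1, RUNX3 and KLRB1 had none under these names. Of the 42 genes, 39 were well above background on at least 2 arrays and were tested, out of 13500 named genes tested. CD69 and IL17A were above background on 0 arrays and CCR9 on 1 array, so these 3 genes were not tested. Of the 39 genes tested, 25 were above background on every array.

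T cells recognise antigen through a receptor whose signal passes through the CD3 and zeta chains to the kinases LCK, FYN and ZAP70, with CD4 or CD8 as coreceptor. NK cells and many cytotoxic T cells carry lectin-like receptors such as CD94 and NKG2D. The colon holds large numbers of both kinds of lymphocyte, in the epithelium, the lamina propria and the lymphoid follicles, and small resting lymphocytes are among the most radiosensitive cells of the body. They are replaced by division of survivors and by cells newly made in the bone marrow and thymus.

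The animals were young adult males, 1 array per animal. The 4 control animals were sham irradiated, are labelled day 4 and served as the baseline for every day. Irradiated animals received a single uniform dose from a cobalt-60 source and were sampled on day 4 (4 animals after 6.7 Gy and 4 after 7.4 Gy), day 7 (4 and 4) or day 12 (2 and 2). Whole colon tissue was used, and all 7 colon epithelium markers with a probe (out of 9) were above background on at least 1 control array. In such bulk samples, fewer cells of a type and less RNA per cell cannot be told apart. All levels are log2 signals relative to the 75th percentile of the same array, so every change is relative to that percentile, and levels of different probes are not compared.

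The share of probes that stood clear of background was 66.6% to 84.8% per array, and arrays of a group correlated across probes at 0.963 to 0.985. One control animal stood apart for these genes. Its array, control replicate 1, lay at a median of -0.66 from the control mean on the log2 scale over the 39 genes, with 34 of the 39 below that mean. The medians of the other 3 control arrays were 0.06 to 0.35. Over all named genes the same array lay at 0.03. Counts and medians against control are therefore also given without it.

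The members were at their lowest on day 7. Against control, the median log2 change of the 39 genes was -0.28 (6.7 Gy) and -0.39 (7.4 Gy) on day 4. It reached -0.99 and -0.93 on day 7, with -0.59 and -0.43 at the last time point, day 12. Over all named genes the medians were between -0.04 and 0.07. On day 7, 35 genes after 6.7 Gy and 33 after 7.4 Gy were below control. Without control replicate 1 the day 4 medians were -0.55 and -0.62, those of day 7 -1.25 and -1.11, and those of day 12 -0.80 and -0.68. The 8 day 7 arrays lay at medians between -1.39 and -0.47, and the 8 day 4 arrays between -0.64 and -0.04.

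**Figure D1:**
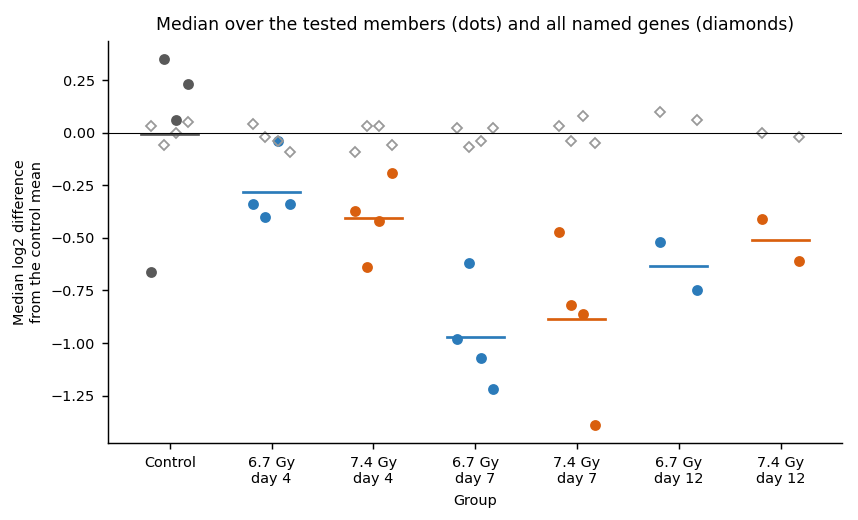
Median log2 difference from the control mean for each array, over the 39 tested T and NK lymphocyte genes (dots) and over all named genes (diamonds), by group, with bars for the mean of the dots. The 8 day 7 arrays lie between -1.39 and -0.47, control replicate 1 is the low control dot at -0.66, and the medians over all named genes stay between -0.09 and 0.10.

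Calls of single genes were made by limma at an adjusted p under 0.05, over all probes, with at least a 2-fold change. On day 4 after 6.7 Gy, 1 of the 39 genes fell (TBX21), against 1.89% of all named genes, and 1 rose (LEF1), against 2.36%. After 7.4 Gy, 3 fell (TBX21, EOMES and CXCR6), against 3.98%, and 2 rose (LEF1 and IL2RA), against 4.24%. On day 7 after 6.7 Gy, 5 fell (CD27, CD96, GATA3, CXCR6 and KLRK1), against 0.23% of all named genes. After 7.4 Gy on day 7, 0 of the 39 passed (0.296% of all named genes did), with 25 at an unadjusted p under 0.05 and a smallest adjusted p of 0.0544 for CD27. The methods' t-test also called 0. On day 12, 0 genes passed at either dose by limma or by that test, with 14 and 8 at an unadjusted p under 0.05 and lower; 0.0222% and 0.0148% of all named genes were called lower there.

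The counts below the unadjusted threshold separate the days more clearly than the calls. On day 7, 26 of the 39 genes were lower at an unadjusted p under 0.05 after 6.7 Gy (66.7%, against 5.3% of all named genes), and 25 after 7.4 Gy (64.1%, against 6.41%). On day 4, with every control included, the counts were 6 and 7 (15.4% and 17.9%), close to the 13.9% and 18.8% of all named genes. On day 12, 14 and 8 were lower, against 2.61% and 4.15%. Every array of the group was below every control array for 14 genes after 6.7 Gy and 7 after 7.4 Gy on day 7, against 4.07% and 2.99% of all named genes.

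The adjusted calls depended on single arrays. Without control replicate 1, 14 genes were called lower on day 7 after 6.7 Gy and 9 after 7.4 Gy, and 7 on day 4 after 7.4 Gy. The 5 calls of day 7 after 6.7 Gy became 0 without control replicate 2 or 4 or without replicate 1, 3 or 4 of the irradiated group, and 1 (CD96) without control replicate 3. They were also 0 with slide as a block, with spike-in scaling, in a fit of the groups compared alone and by the methods' t-test. The 0 calls of day 7 after 7.4 Gy became 2 without replicate 1 and 3 without replicate 3 of that group. The 3 calls of day 4 after 7.4 Gy became 1 without its replicate 4. The numbers at an unadjusted p under 0.05 on day 7 moved less, between 25 and 29 after 6.7 Gy and between 21 and 29 after 7.4 Gy. Without control replicate 1 they were 15 and 17 (day 4), 29 and 29 (day 7), and 18 and 13 (day 12). The low day 4 counts with every control included therefore depended on that array. Shares of all named genes in fits that left out an array are not given here.

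Since no member was called between the doses, both doses of a day were also set against control together, a comparison chosen after the data were seen. On day 7, 12 of the 39 genes fell, against 0.593% of all named genes: CD3E, CD3G, CD27, CD96, SH2D1A, SIT1, GATA3, EOMES, CCR6, CXCR3, CXCR6 and KLRK1. They were lower by 1.11 to 1.56 on the log2 scale. On day 4, 2 fell (TBX21 and EOMES), against 3.24%, and 2 rose (IL2RA and LEF1), against 3.51%. On day 12, 1 fell (CD96), against 0.037%. Without control replicate 1 the counts called lower were 6, 17 and 0 on days 4, 7 and 12, and without control replicate 2 the day 7 count was 1. The day 7 count was between 3 and 7 without control replicate 3 or 4, without replicate 1, 3 or 4 of the 6.7 Gy group, or without replicate 4 of the 7.4 Gy group.

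**Figure D2:**
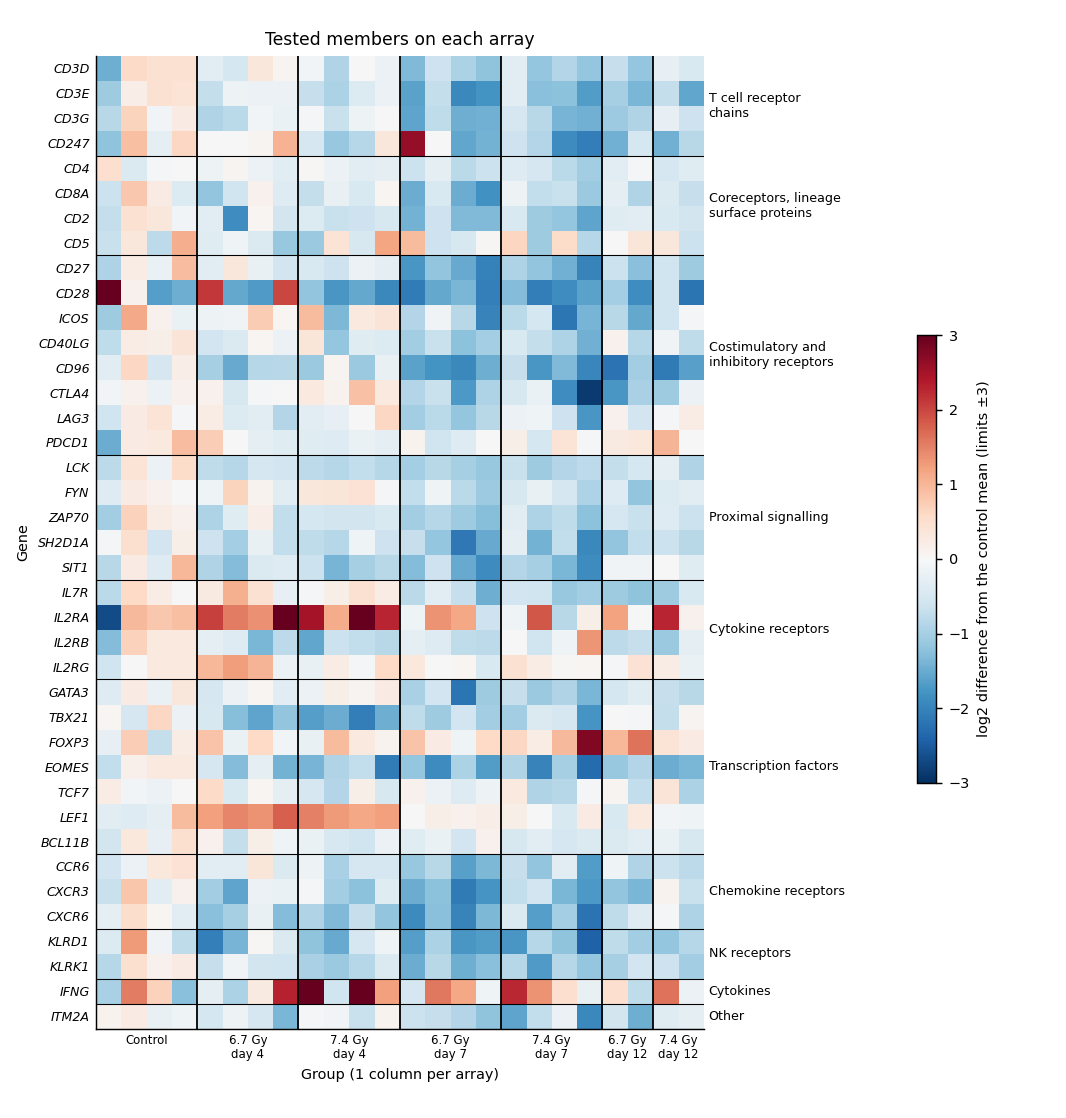
Log2 difference from the control mean for each of the 39 tested genes (rows, by role) on each of the 24 arrays (columns, by group), blue below and red above the control mean, with the colour scale limited to 3 in either direction. Between 31 and 35 of the 39 genes were below the control mean on each day 7 array, and the first control column is low for 34 of them.

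The receptor chains were the first group described. CD3D, CD3E and CD3G are the invariant chains that assemble with the antigen receptor of every T cell, and CD247 encodes the zeta chain that carries most of its signal. None of the 4 was called in any of the 6 groups, and 3 of the 4 were lower at an unadjusted p under 0.05 on day 7 at each dose.

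CD3E stood at -0.35, 0.93, 1.17 and 1.13 in the controls, at 0.00, 0.56, 0.55 and 0.54 on day 4 after 6.7 Gy and at 0.03, -0.24, 0.30 and 0.55 after 7.4 Gy. On day 7 it stood at -0.89, 0.00, -1.22 and -1.07 after 6.7 Gy and at 0.41, -0.53, -0.52 and -0.96 after 7.4 Gy. On day 12 it was at -0.27 and -0.64 and at 0.00 and -0.85. Apart from control replicate 1, every control was above every day 7 and day 12 array. The mean difference from control on day 7 was -1.51 ± 0.35 (SE; limma adjusted p = 0.0602) after 6.7 Gy and -1.12 ± 0.35 (adjusted p = 0.18) after 7.4 Gy, and with both doses together CD3E was 2.49-fold lower (adjusted p = 0.0317). On day 12 the differences from control were -1.17 and -1.15.

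CD3G stood at -2.0, -0.48, -1.24 and -0.91 in the controls, at -2.05, -1.97, -1.25 and -1.35 and at -1.19, -1.83, -1.31 and -1.14 on day 4 (6.7 and 7.4 Gy), at -2.74, -1.93, -2.62 and -2.59 and at -1.65, -1.98, -2.56 and -2.59 on day 7, and at -2.24 and -2.06 and at -1.40 and -1.77 on day 12. Again control replicate 1 overlapped the irradiated arrays. The day 7 difference was -1.31 ± 0.29 (SE; limma adjusted p = 0.0572) and -1.04 ± 0.29 (adjusted p = 0.137), 2.26-fold lower with both doses together (adjusted p = 0.025). CD3D stood at 0.00, 2.03, 1.92 and 1.92 in the controls, at 1.15, 0.95, 1.80 and 1.56 and 1.38, 0.56, 1.46 and 1.28 on day 4, at 0.15, 0.85, 0.52 and 0.25 and 1.16, 0.30, 0.60 and 0.31 on day 7, and at 0.78 and 0.31 and 1.22 and 1.02 on day 12. Its day 7 differences were -1.03 and -0.88 (limma adjusted p = 0.293 and 0.347). Control replicate 1 at 0.00 lay below every other array of CD3D, whereas the other 3 controls lay above all irradiated arrays.

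CD247 was above background on 10 of the 24 arrays only. It stood at -5.98, -3.86, -5.06 and -4.15 in the controls, at -4.77, -4.78, -4.69 and -3.72 and -5.27, -5.90, -5.61 and -4.43 on day 4, at -2.12, -4.76, -6.33 and -6.19 and -5.38, -5.63, -6.66 and -6.84 on day 7, and at -6.21 and -5.30 and -6.20 and -5.60 on day 12. Its arrays overlapped the controls in every group, and 1 array of day 7 after 6.7 Gy (-2.12) was the highest of all. On day 7 after 7.4 Gy no array measured it well above background, against 2 of the 4 controls, so no fold is given (limma adjusted p = 0.482).

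Probes described in the deposited annotation as constant regions of the receptor's alpha and beta chains were looked up after the data were seen. Of 21 such probes, 16 were tested (4 alpha and 12 beta), and they match 9 transcripts, so they are not independent. On day 7 all 16 were below control at each dose, with medians of -1.40 after 6.7 Gy and -1.31 after 7.4 Gy. Of the 16, 3 and 2 were called lower there, against 0.23% and 0.296% of all named genes. Their day 4 medians were -0.68 and -0.82, and 0 and 2 were called lower, against 1.89% and 3.98%. Their day 12 medians were -0.72 and -0.63, and 0 were called at either dose.

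Among the coreceptors and lineage surface proteins, CD4 marks helper T cells and is also made by macrophages, and CD8A encodes the alpha chain of the cytotoxic coreceptor. CD4 stood at 4.15, 3.23, 3.60 and 3.64 in the controls, at 3.51, 3.74, 3.47 and 3.33 and 3.69, 3.48, 3.31 and 3.36 on day 4, at 3.00, 3.36, 2.85 and 3.01 and 3.28, 3.16, 2.85 and 2.62 on day 7, and at 3.34 and 3.59 and 3.15 and 3.30 on day 12. For CD4, control replicate 1 was the highest control. CD4 differed from control by -0.60 ± 0.18 and -0.68 ± 0.18 on day 7 (SE; limma adjusted p = 0.189 and 0.11). Its second probe differed by -0.41 and -0.35 on day 7, and on day 4 it lay above control (0.29 and 0.28) where the brightest probe lay below (-0.14 and -0.19).

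CD8A stood at -0.87, 0.58, 0.02 and -0.64 in the controls, at -1.40, -0.83, -0.10 and -0.61 and -0.94, -0.44, -0.69 and -0.16 on day 4, at -1.71, -0.68, -1.71 and -2.05 and -0.38, -0.97, -0.89 and -1.34 on day 7, and at -0.49 and -1.13 and -0.65 and -0.93 on day 12. The day 7 difference was -1.31 ± 0.34 (SE; limma adjusted p = 0.104) after 6.7 Gy and -0.67 ± 0.34 (adjusted p = 0.483) after 7.4 Gy, with groups that overlapped. CD2, an adhesion receptor of T and NK cells, was at -1.16 and -1.06 on day 7 and at -0.33 and -0.50 on day 12. CD5, a negative regulator of receptor signalling, was above background on 2 arrays only and lay within 0.51 of control in every group.

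**Figure D3:**
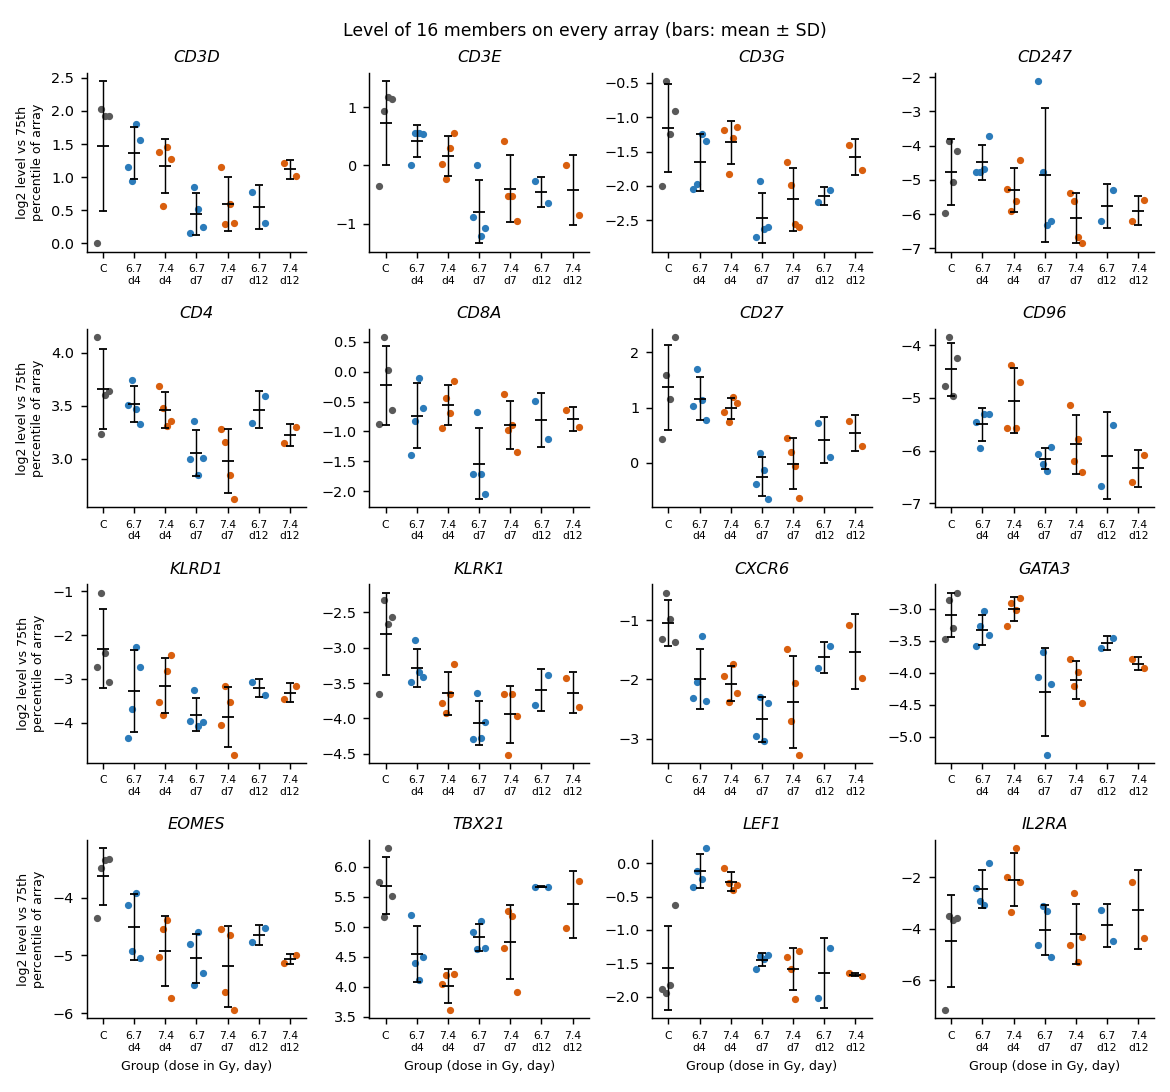
Level of 16 members on every array, as log2 signal relative to the 75th percentile of the array, by group (C, control; then dose in Gy and day), with bars for the mean and SD. CD27, CD96, GATA3 and CXCR6 on day 7 after 6.7 Gy lie below every control, LEF1 is high on day 4 only, and control replicate 1 is the lowest control for CD3D, CD3E and IL2RA.

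The costimulatory and inhibitory receptors held 2 of the 5 day 7 calls. CD27, a receptor of naive and memory T cells that binds CD70, stood at 0.43, 1.59, 1.16 and 2.28 in the controls, at 1.02, 1.70, 1.14 and 0.78 and 0.91, 0.74, 1.19 and 1.09 on day 4, at -0.39, 0.17, -0.14 and -0.66 and 0.45, 0.19, -0.07 and -0.64 on day 7, and at 0.71 and 0.11 and 0.76 and 0.30 on day 12. On day 7 after 6.7 Gy all 4 arrays lay below all 4 controls, a 3.08-fold decrease (limma adjusted p = 0.0335). After 7.4 Gy the difference was -1.39 ± 0.32 (SE; adjusted p = 0.0544), with 1 array overlapping control replicate 1. The fall came between days 4 and 7, when CD27 was 2.31-fold lower (limma adjusted p = 0.000774) and the 8 day 7 arrays lay below the 8 day 4 arrays. With both doses together against control, this call held when any single array of these groups was left out and under the 12 other settings tried.

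CD96, an inhibitory receptor of T and NK cells that binds the poliovirus receptor, stood at -4.77, -3.84, -4.97 and -4.25 in the controls, at -5.45, -5.96, -5.31 and -5.30 and -5.57, -4.37, -5.58 and -4.69 on day 4, at -6.06, -6.25, -6.39 and -5.93 and -5.14, -6.20, -5.79 and -6.41 on day 7, and at -6.68 and -5.51 and -6.59 and -6.09 on day 12. It was above background on all 4 controls but on 1 of 4 arrays in each day 7 group and on 0 of 2 on day 12 after 7.4 Gy, so its folds are imprecise. On day 7 after 6.7 Gy CD96 fell 3.25-fold (limma adjusted p = 0.0338), with every array below every control. On day 12 after 7.4 Gy it was at least 1.9-fold lower (adjusted p = 0.138). CD96 was among the 6 members that were lower still on day 12 than on day 7 (-1.56 on day 7, -1.76 on day 12, both doses).

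The other receptors of this kind were not called against control. ICOS, CTLA4 and LAG3, which appear on activated or regulatory T cells, differed from control by -0.96 and -1.23, by -1.04 and -1.36, and by -0.97 and -0.66 on day 7, for 6.7 and 7.4 Gy. ICOS and CTLA4 were close to control on day 4 (between -0.10 and 0.39) and fell 2.30- and 2.54-fold from day 4 to day 7 (limma adjusted p = 0.0185 and 0.0027). CD40LG, the helper T cell ligand of CD40, was at -0.99 and -0.89 on day 7 by its brightest probe. Another of its probes, above background on all 24 arrays, was at -0.03 and -0.02. CD28 was above background on 3 arrays only, and on day 7 on none. PDCD1 stayed between -0.31 and 0.52 in all groups.

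All 5 proximal signalling genes with a probe, LCK, FYN, ZAP70, SH2D1A and SIT1, were lower at an unadjusted p under 0.05 on day 7 at both doses, and none was called there at either dose. Their changes were between -1.38 and -0.69 after 6.7 Gy and between -1.28 and -0.53 after 7.4 Gy. LCK and ZAP70, the kinases that start the receptor signal, were at -0.99 and -1.06 after 6.7 Gy. FYN, a related kinase also made in many other cells, was at 0.07 and 0.27 on day 4 and at -0.69 and -0.53 on day 7. SIT1, a transmembrane adaptor that dampens the signal, was at -1.33 and -1.28 on day 7 and back at -0.11 and -0.18 on day 12.

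Among the cytokine receptors, 1 of the 4 genes tested was called at a single dose. IL2RA, the alpha chain of the interleukin 2 receptor, appears on activated and regulatory T cells. It stood at -7.15, -3.49, -3.67 and -3.57 in the controls, at -2.41, -2.93, -3.09 and -1.44 and -1.98, -3.36, -0.88 and -2.18 on day 4, at -4.61, -3.13, -3.31 and -5.10 and -4.61, -2.60, -5.30 and -4.30 on day 7, and at -3.27 and -4.46 and -2.19 and -4.34 on day 12. All 8 day 4 arrays lay above all controls. After 7.4 Gy it rose by 2.37 ± 0.79 (SE; limma adjusted p = 0.0397), and after 6.7 Gy the difference was 2.0 (adjusted p = 0.112). Control replicate 1 (-7.15) was not above background; without it the 7.4 Gy difference was 1.48 and was not called. The second probe of IL2RA changed by 1.38 and was not called.

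IL7R, the receptor for the survival cytokine interleukin 7, was above control on day 4 (0.39 and 0.19), below it on day 7 (-0.83 at both doses) and on day 12 (-1.14 and -0.76), and fell 2.18-fold from day 4 to day 7 (limma adjusted p = 0.000737), with no overlap between the 8 arrays of each day. IL2RB was above background on 6 arrays only. IL2RG, the chain shared by several cytokine receptors, was at 0.77 and 0.14 on day 4 and within 0.19 of control later.

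Among the transcription factors, TBX21 and EOMES, which drive the cytotoxic and interferon gamma programmes of T and NK cells, were already low on day 4. TBX21 stood at 5.74, 5.17, 6.31 and 5.52 in the controls, at 5.20, 4.40, 4.11 and 4.49 and 4.04, 4.19, 3.61 and 4.22 on day 4, at 4.92, 4.63, 5.10 and 4.65 and 4.65, 5.26, 5.18 and 3.92 on day 7, and at 5.67 and 5.66 and 4.98 and 5.77 on day 12. On day 4 TBX21 fell 2.20-fold after 6.7 Gy (limma adjusted p = 0.0208) and 3.18-fold after 7.4 Gy (adjusted p = 0.000781), where no array overlapped the controls. Its lowest day was day 4, and from day 4 to day 12 it rose 2.36-fold (adjusted p = 0.00191). The colon epithelium markers were also lowest on day 4, and which cells gave the TBX21 signal was not tested. The 6.7 Gy call was lost without control replicate 3 or without replicate 2 or 3 of the irradiated group, and both calls with array position as a block.

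EOMES stood at -4.36, -3.48, -3.35 and -3.34 in the controls, at -4.13, -4.93, -3.92 and -5.05 and -5.02, -4.54, -4.38 and -5.73 on day 4, at -4.80, -5.51, -4.59 and -5.30 and -4.54, -5.63, -4.64 and -5.95 on day 7, and at -4.77 and -4.52 and -5.13 and -5.00 on day 12. It fell 2.43-fold on day 4 after 7.4 Gy (limma adjusted p = 0.0173), and all 8 day 7 and all 4 day 12 arrays lay below all controls. On day 7 it differed by -1.41 and -1.56 (adjusted p = 0.0982 and 0.0582), and by -1.01 and -1.43 on day 12. Its difference between days 7 and 12 was 0.27, and that of TBX21 was 0.73. The day 4 call was lost without control replicate 4 or without replicate 4 of the irradiated group.

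GATA3, the factor of type 2 helper and innate lymphoid cells, stood at -3.47, -2.86, -3.30 and -2.75 in the controls, at -3.59, -3.27, -3.04 and -3.42 and -3.27, -2.92, -3.02 and -2.84 on day 4, at -4.07, -3.68, -5.28 and -4.17 and -3.79, -4.21, -3.99 and -4.47 on day 7, and at -3.62 and -3.46 and -3.79 and -3.93 on day 12. On day 4 its arrays overlapped the controls. On day 7 every array lay below every control, a 2.31-fold fall after 6.7 Gy (limma adjusted p = 0.0459) and a difference of -1.02 ± 0.25 (SE; adjusted p = 0.0838) after 7.4 Gy. From day 4 to day 7 GATA3 fell 2.05-fold (adjusted p = 0.000471), with no overlap.

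LEF1, a WNT pathway factor of naive T cells that other cell types also use, went the other way. It stood at -1.88, -1.95, -1.83 and -0.62 in the controls, at -0.35, -0.11, -0.23 and 0.23 and -0.07, -0.30, -0.40 and -0.33 on day 4, at -1.58, -1.39, -1.44 and -1.37 and -1.40, -1.59, -2.03 and -1.32 on day 7, and at -2.02 and -1.27 and -1.65 and -1.69 on day 12. All 8 day 4 arrays lay above all controls, with a rise of 1.45 ± 0.24 after 6.7 Gy and 1.30 ± 0.24 after 7.4 Gy (SE; limma adjusted p = 0.00171 and 0.00119). On days 7 and 12 it was within 0.12 of control. TCF7, a factor of the same family, was at -0.03 and -0.42 on day 4 by its brightest probe, while its second probe rose by 1.22 at each dose. BCL11B, which keeps the T cell identity, lay between -0.44 and -0.14 in all groups. FOXP3, the factor of regulatory T cells, was above background on 6 arrays, on none of the controls, and was not called in any group.

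Chemokine receptors guide lymphocytes into the mucosa. CXCR6, which binds CXCL16 and marks resident T cells, stood at -1.32, -0.53, -0.98 and -1.36 in the controls, at -2.31, -2.04, -1.27 and -2.36 and -1.94, -2.38, -1.73 and -2.23 on day 4, at -2.95, -2.29, -3.04 and -2.40 and -1.49, -2.71, -2.06 and -3.27 on day 7, and at -1.81 and -1.44 and -1.08 and -1.98 on day 12. It fell 2.03-fold on day 4 after 7.4 Gy (limma adjusted p = 0.0373) and 3.08-fold on day 7 after 6.7 Gy (adjusted p = 0.043), with every array below every control. On day 7 after 7.4 Gy the difference was -1.34 ± 0.34 (SE; adjusted p = 0.0853). By day 12 it was at -0.58 and -0.48. The day 4 call was lost in 5 of 8 fits that left out an array and in 8 of 15 other settings, and the day 7 call in 6 of 8 and 8 of 14. Its second probe, not called, differed by -0.90 on day 4 after 7.4 Gy and by -0.77 and -0.64 on day 7, and the mean over both probes ended both calls. CXCR3, the receptor of CXCL9, CXCL10 and CXCL11, was at -1.66 and -1.10 on day 7, but its second probe, above background on all 24 arrays, was at 0.06 and 0.12. The mean over both probes ended the call of CXCR3 over both doses (-0.64). CCR6, the receptor of CCL20, was at -1.24 and -0.97.

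The NK and innate-like receptors are read by KLRD1, which encodes CD94, and KLRK1, which encodes NKG2D. KLRK1 stood at -3.65, -2.33, -2.67 and -2.57 in the controls, at -3.49, -2.90, -3.35 and -3.41 and -3.78, -3.93, -3.65 and -3.23 on day 4, at -4.29, -3.64, -4.28 and -4.05 and -3.65, -4.51, -3.65 and -3.96 on day 7, and at -3.81 and -3.39 and -3.43 and -3.84 on day 12. Only control replicate 1 lay among the day 7 arrays. KLRK1 fell 2.40-fold after 6.7 Gy (limma adjusted p = 0.043) and differed by -1.14 ± 0.26 (SE; adjusted p = 0.0547) after 7.4 Gy. Its second probe fell further, by 2.37 on the log2 scale after 6.7 Gy (adjusted p = 0.024) and by 2.16 after 7.4 Gy (adjusted p = 0.0275).

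KLRD1 stood at -2.73, -1.03, -2.42 and -3.08 in the controls, at -4.36, -3.70, -2.28 and -2.74 and -3.52, -3.83, -2.82 and -2.45 on day 4, at -3.97, -3.26, -4.07 and -3.99 and -4.06, -3.16, -3.53 and -4.73 on day 7, and at -3.07 and -3.36 and -3.47 and -3.16 on day 12. All 8 day 7 arrays lay below all controls, at -1.51 ± 0.46 and -1.56 ± 0.46 (SE), but the controls spread over more than 2 log2 units and the gene was not called (limma adjusted p = 0.2 and 0.158). Its second probe was called after 7.4 Gy (-1.91). In all, 21 other probes of 17 members were tested, and 8 calls against control at a single dose came from them. Only 1 of the 8 was made where the brightest probe was also called. Where the brightest probe was called, none of the other probes went in the other direction. Besides those named, the second probes of LCK (-1.42 and -1.46 on day 7) and CD2 (-1.59 after 6.7 Gy) were called.

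Of the remaining members, IFNG, the cytokine of type 1 T cells and NK cells, was at 0.34 and 1.78 (day 4), 0.53 and 0.97 (day 7) and -0.13 and 0.72 (day 12), and was not called. ITM2A, a membrane protein of activated T cells and other tissues, was at -0.85 and -1.11 on day 7.

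The order of the days was compared next, over both doses. From day 4 to day 7, 7 of the 39 genes fell (CD27, ICOS, CTLA4, IL7R, IL2RA, GATA3 and LEF1), against 2.39% of all named genes, and the median change was -0.59 against 0.02 over all named genes. The mean was lower on day 7 than on day 4 for 34 of the 39 (87.2%, against 48.4% of all named genes). The lowest of the 3 day means was that of day 7 for 27 genes (69.2%, against 25.4%), of day 4 for 5 (CD5, PDCD1, IL2RB, TBX21 and FOXP3) and of day 12 for 7. On all 3 days 28 genes were below control (71.8%, against 23.2%).

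From day 7 to day 12 the median change was 0.33, against 0.03 over all named genes. Of the 34 members below control on day 7, 28 were higher on day 12. Among all named genes, 4885 of the 6894 below control on day 7 were higher on day 12, so most such genes rose. No member was called. At an unadjusted p under 0.05, 8 members were higher (CD4, CD2, CD27, LAG3, SIT1, GATA3, TBX21 and CXCR6), against 6.07% of all named genes. The largest difference was that of SIT1, 1.16 (limma adjusted p = 0.141), followed by those of CXCR6 (0.95), LAG3 (0.75), TBX21 (0.73) and CD2 (0.70). Of the 34 members below control on day 7, 2 were at or above it on day 12 (CD5 and PDCD1), against 2338 of the 6894 named genes. Another 6 of the 34 were lower still on day 12 (CD96, IL7R, CD247, BCL11B, TCF7 and IL2RB), against 2006 of the 6894. The differences were small for CD3E (0.16) and FYN (0.03). From day 4 to day 12, 3 genes fell (CTLA4, IL7R and LEF1), against 3.51%, and 1 rose (TBX21), against 4.1%, with a median change of -0.15. With 2 animals per dose, day 12 gives the least precise means.

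**Figure D4:**
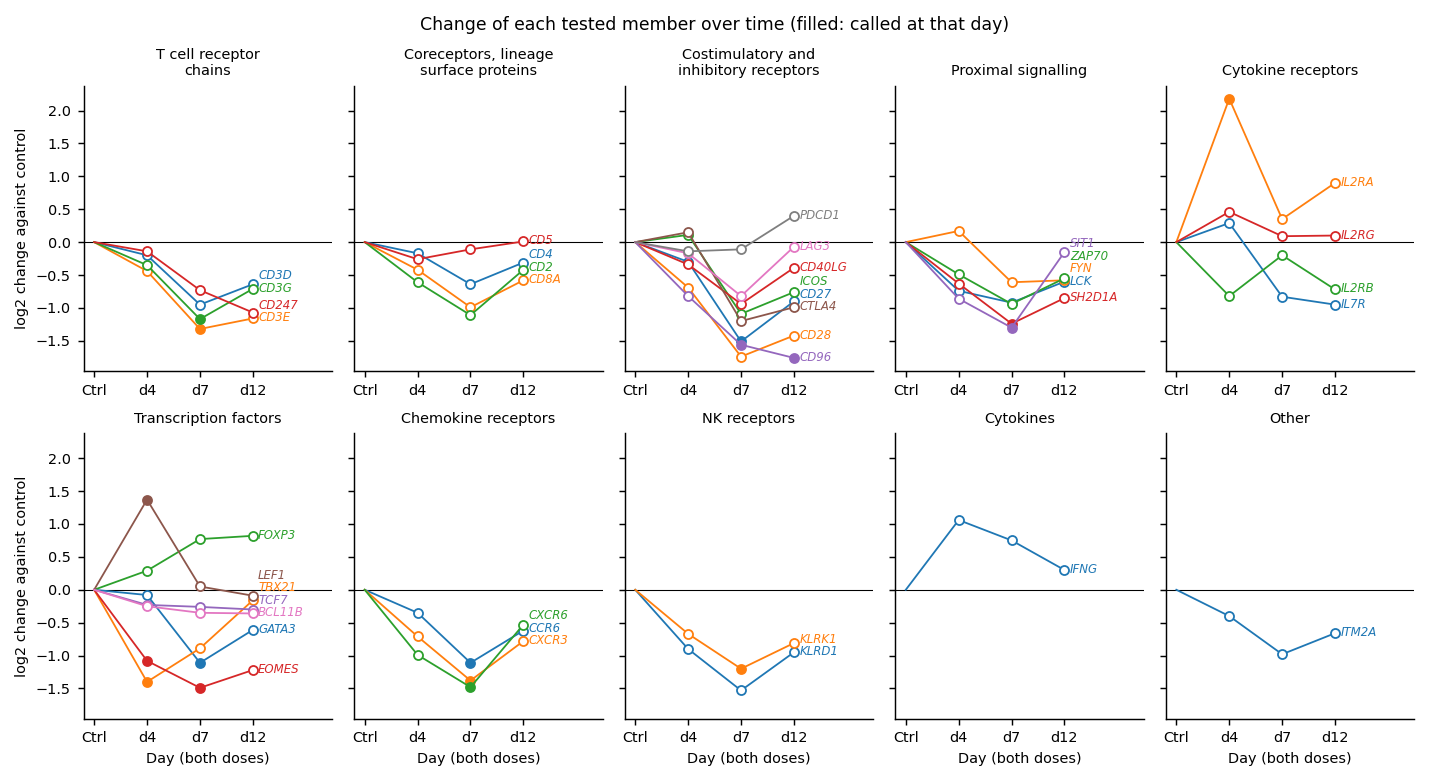
Log2 change against control of each tested member on days 4, 7 and 12 (both doses together), by role, with filled points where the gene was called on that day. Most lines are lowest on day 7, as for 27 of the 39 genes, while TBX21 is lowest on day 4 and IL2RA and LEF1 rise on day 4.

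The doses were compared within each day. The difference between 7.4 and 6.7 Gy had a median over the members of -0.08 on day 4, 0.15 on day 7 and 0.03 on day 12, with a median SE of 0.33, 0.33 and 0.47. limma and the methods' t-test called 0 of the 39 on each day (smallest adjusted p = 0.782, 1.0 and 0.999), and 1, 0 and 0 were at an unadjusted p under 0.05, the 1 being IL2RG on day 4. The change of the dose difference from day 4 to day 7 was called for 0 genes (smallest adjusted p = 0.995), with 1 at an unadjusted p under 0.05 (IL2RG). A difference between doses of the size of these errors would not be seen with 4 animals per group.

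Array position on the slides moved with the day. Controls were in position 1, day 4 in positions 1 and 2, day 7 in positions 3 and 4 and day 12 in position 4, so that day 7 and position cannot be told apart. Within day 7 after 7.4 Gy, the 2 arrays in position 3 had medians of -0.47 and -0.82 and the 2 in position 4 medians of -0.86 and -1.39. Day 12 lay in position 4 as well, and its 4 arrays had medians between -0.75 and -0.41. Set against the control of the same slide, the medians of day 7 after 6.7 Gy were between -1.41 and -0.44 over 4 slides, and those of day 7 after 7.4 Gy were -1.73 and -0.28. For day 4 they were -0.81 and 0.48 after 6.7 Gy and -0.89 and -0.29 after 7.4 Gy, and for day 12 after 6.7 Gy -0.89 and -0.51. The slide of control replicate 1 gave the value closest to control, or above it, in each of these groups that it holds.

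A list of 61 other genes of T and NK cells gave a smaller change. Of the 52 tested, the median was -0.24 and -0.25 (day 4), -0.58 and -0.52 (day 7) and -0.18 and -0.32 (day 12). On day 7, 3 fell after 6.7 Gy and 4 after 7.4 Gy, against 0.23% and 0.296% of all named genes. PTPRC, which encodes the leukocyte antigen CD45, fell 2.89- and 2.92-fold (limma adjusted p = 0.0454 and 0.0341), and THEMIS, needed for T cell selection in the thymus, 2.96- and 2.43-fold (adjusted p = 0.0147 and 0.0326). PRKCQ, a kinase of the T cell receptor pathway, fell 2.13-fold after 6.7 Gy. After 7.4 Gy, ITGA4, an integrin chain of gut homing, fell 2.47-fold.

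Several ligands of the member receptors rose on day 4. Of 18 tested out of 21 listed, 2 rose after 6.7 Gy (2.36% of all named genes did) and 7 after 7.4 Gy (4.24%), and 0 fell (1.89% and 3.98%). CCL20, the ligand of CCR6, rose by 3.20 and 3.52, and CXCL16, the ligand of CXCR6, by 1.73 and 2.17. After 7.4 Gy the CXCR3 ligands CXCL10 and CXCL11 rose by 3.17 and 3.54, IL7 by 1.14, CD70 by 1.23 and PDCD1LG2 by 1.29, where PDCD1LG2 was above background on 1 of 4 controls and CXCL11 on 2 of 4. On days 7 and 12 no ligand was called at either dose, and the medians were between 0.03 and 0.13.

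Marker lists of other cells were read beside the members, and their part in the result was not tested. The list of markers of all leukocytes had medians of -1.10 and -1.11 on day 7, and B cell markers -1.04 and -1.47. Dendritic cell markers were lower, at -1.55 and -1.96, and had already been at -1.48 and -1.52 on day 4. Colon epithelium markers were at -0.02 and -0.12 on day 7 but at -1.0 and -1.29 on day 4, and macrophage and monocyte markers at -0.07 and 0.16 on day 7 and 0.64 and 0.89 on day 4. The T cell markers, which share genes with the members, were at -1.09 and -1.05 on day 7. Their summed linear level ranged from 3.85 to 10.8 over the controls, from 3.05 to 5.03 on day 7 after 6.7 Gy and from 2.92 to 6.06 after 7.4 Gy. CD5 was not above background on any array of these 2 groups, nor CD247 after 7.4 Gy. The NK cell markers were at -0.40 and -0.25 on day 7, with NCR1 above background on no array of the controls or of day 7 after 6.7 Gy. Their summed linear level ranged from 0.29 to 0.626 over the controls. On day 7 it ranged from 0.147 to 0.253 after 6.7 Gy and from 0.18 to 0.274 after 7.4 Gy, below every control.

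**Figure D5:**
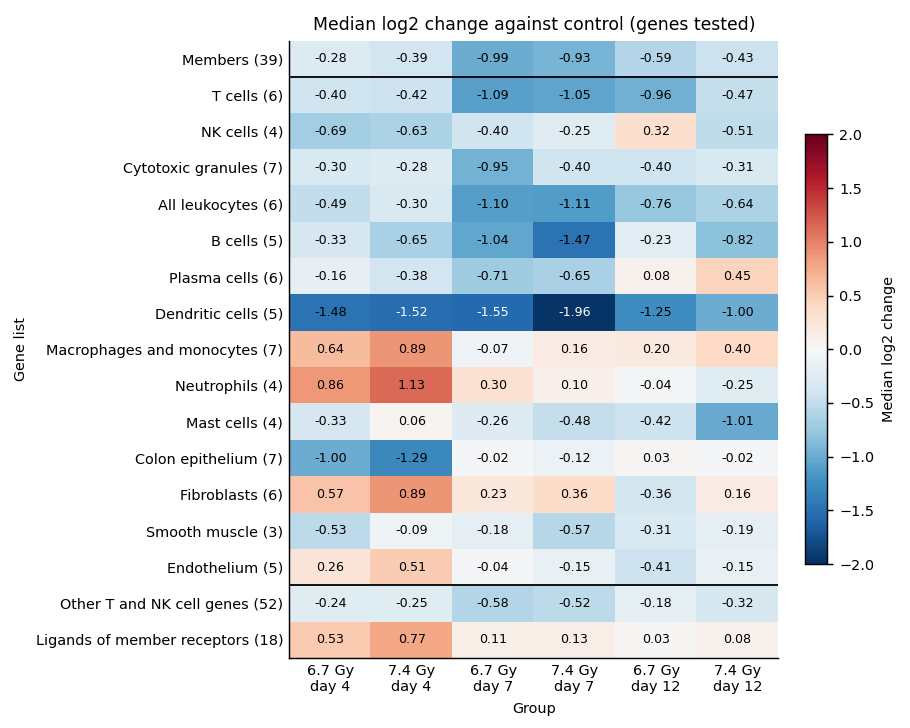
Median log2 change against control of each gene list (rows) in the 6 irradiated groups (columns), blue below and red above 0, with the number of genes tested beside each name. T cell, leukocyte and B cell lists are lowest on day 7, the ligands of the member receptors are highest on day 4 (0.53 and 0.77), and the epithelium list is lowest on day 4.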

How the data were processed

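RNA of whole colon from 24 animals was labelled with Cy3 and hybridised to 1-colour arrays. The authors deposited scanner files holding a background-subtracted processed signal, an intensity not yet normalized between arrays, and a table of normalized log2 values, used here as an alternative. Outlier spots (24 to 712 per array) were set to missing, spots of a probe were averaged, and log2 intensity minus the 75th percentile of the array (550.7 to 963.6 intensity units) was analysed. Probes well above background on at least 2 arrays entered (38220). limma 3.58.1 under R 4.3.3 fitted 1 mean per group to all arrays together. The two-sided p-values were adjusted by Benjamini-Hochberg over all probes, and a call needed an adjusted p under 0.05 and a 2-fold change. The fit was tested on simulated data. CD8A and TCF7 were named through a gene ID and KLRK1 through an accession. A bound on a fold sets the dim group, on each array, to its own signal or the lowest signal above background, whichever was higher. The members and lists were chosen with earlier results of these data known. Named in full were the members called against control, the CD3 and zeta chains, CD4, CD8A, KLRD1 and KLRK1. Alternatives were other background correction, scaling, filters, blocks, tests and probes, and leaving out each array. Animals were separate, and their number limits the precision. A text label gives another last day than the sample labels, which were followed. Results of a few listed genes are not reported here.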

Additional observations from a re-analysis of the deposited data

Results flagged for a closer look

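Of 85 groups of 4 arrays tested for an outlying array, 9 held one, and chance flags about 1 group in 20. For 4 of them it was control replicate 1: CD3D at 0.00 against 1.92 to 2.03 on the other controls, CD3E at -0.35 against 0.93 to 1.17, EOMES at -4.36 against -3.48 to -3.34, and IL2RA at -7.15 against -3.67 to -3.49. LEF1 was at -0.62 on control replicate 4, against -1.95 to -1.83. On day 4 after 6.7 Gy, CD247 was at -3.72 on replicate 4 (-4.78 to -4.69 on the others) and CD3E at 0.00 on replicate 1 (0.54 to 0.56). In the same group the median difference of the members from control was -0.04 on replicate 3, against -0.40 to -0.34. On day 7 after 6.7 Gy, KLRD1 was at -3.26 on replicate 2, against -4.07 to -3.97.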

How the results depend on the processing

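Of 679 values of the 12 calls against control and the 17 calls over both doses under an alternative, 468 kept the call, 211 ended it and 0 turned its sign. Medians of the members kept their sign under all alternatives. The cause of these moves was not tested. Spike-in scaling moved the median of all named genes by 0.10 to 0.29. Values below are for 6.7 and then 7.4 Gy where both moved.

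With normexp background correction the members called lower against control became 1 on day 4 at 7.4 Gy and 3 on day 7 at 6.7 Gy, 1, 4 and 0 on days 4, 7 and 12 over both doses, 3 between days 7 and 4 and 1 between days 12 and 4. Its medians were -0.63 and -0.54 (day 7) and -0.28 and -0.05 (day 12). With spike-in scaling the counts were 0 on days 4 and 7 at 6.7 Gy, and 1, 5 and 0 over both doses. Its medians were -0.08 and -0.12 (day 4) and -0.37 and -0.14 (day 12). Quantile normalization gave 2 on day 7 and 1 on day 12 at 7.4 Gy and 1 on day 4 over both doses, and median scaling gave 2 on day 7 at 7.4 Gy. With no filter the counts were 2 on day 7 at 6.7 Gy and 0 on day 12 over both doses. With the filter of 12 arrays they were 2 on day 4 at 6.7 Gy and 8 and 4 on day 7. Without the fold minimum they were 5 on day 4 at 7.4 Gy, 7 on day 4 over both doses, 16 between days 7 and 4 and 5 between days 12 and 4. The mean over all probes of a member gave 2 on day 7 at 7.4 Gy.

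With slide as a block, 0 were called on day 7 at 6.7 Gy, and 7 and 0 on days 7 and 12 over both doses, with medians of -0.45 on day 4 at 6.7 Gy and -0.58 on day 12 at 7.4 Gy. Within slides the day 4 median at 7.4 Gy was -0.59. With scan day as a block the counts were 2 on day 7 at 6.7 Gy and 0 on day 12 over both doses. With array position as a block, 2 were lower and 2 higher on day 4 at 6.7 Gy, and the median at 7.4 Gy was -0.68; days 7 and 12 against control could not be fitted. The groups compared alone gave 0 lower on days 4 and 7 at 6.7 Gy and 1 higher on day 4 at 7.4 Gy. The methods' t-test gave 0 lower on days 4 and 7 at 6.7 Gy and 0 higher on day 4 at either dose.

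Samples of the same replicate number deviated from their group means with small correlations to the controls (-0.12 to 0.152), and the numbers were not taken to pair the animals. On day 7 after 6.7 Gy, where the same numbers share a slide with the controls, all were positive (0.053, 0.152, 0.0971 and 0.139). Every other group held a negative value. The part of the slide in this was not tested. A replicate block gave 0 on day 7 at 6.7 Gy, 1 on day 7 at 7.4 Gy, 1 higher on day 4 at 7.4 Gy and 0 on day 12 over both doses.

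Leaving out single arrays gave 0 to 1 lower on day 4 at 6.7 Gy and 1 to 7 at 7.4 Gy, 0 to 14 and 0 to 9 on day 7, and 1 to 6, 1 to 17 and 0 to 1 on days 4, 7 and 12 over both doses. Those called higher on day 4 were 1 to 2 and 1 to 3. The medians were -0.55 to -0.15 and -0.62 to -0.27 (day 4), -1.25 to -0.89 and -1.11 to -0.78 (day 7), and -0.80 to -0.47 and -0.68 to -0.31 (day 12). The CD96 call of day 12 over both doses was lost in 7 of 8 such fits. Dim members, such as CD247, CD28, CD5, IL2RB and FOXP3 (above background on under 12 arrays each), are limited by their signal over background.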
